A study of Homo sapiens with 8 samples.

Results

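The regions described here had a called EZH2 peak in both samples of 1 myeloma cell line. In its partner line a peak was called in 1 of 2 samples, and a missing call does not show that EZH2 was absent. The regions were chosen by merging overlapping or touching EZH2 peaks from 4 peak lists. A merged region was kept when it held a peak from NTKO run 1, NTKO run 2 and TKO run 2 and none from TKO run 1. This rule found 1016 of 11858 merged regions, called missed regions below because the TKO run 1 list missed them.

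NTKO and TKO are derivatives of KMS11, a human multiple myeloma line whose translocation places the histone methyltransferase gene MMSET under immunoglobulin heavy chain control. In NTKO the wild-type MMSET allele was inactivated and the rearranged, overexpressed allele was kept, whereas in TKO the rearranged allele was inactivated, so that both lines carry 1 disrupted allele and NTKO is the MMSET-high line. EZH2 was precipitated in 2 samples of each line at passages 15 to 20, and each line also had 2 input samples, which served as background for peak calling. The comparison of the lines asks how the MMSET level relates to where EZH2 binds. Whether each line is a single clone is not given in the sources used here, and all other differences between the lines cannot be told apart from MMSET.

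EZH2 is the catalytic subunit of Polycomb repressive complex 2, which methylates lysine 27 of histone H3 and thereby keeps developmental and lineage genes silent. The complex often sits at CpG islands and can spread over broad domains. MMSET methylates lysine 36 of histone H3, a mark that hinders Polycomb repressive complex 2 on the same histone tail, and the rearrangement that raises MMSET is a known driver event in myeloma.

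Presence or absence of a peak chose the missed regions, so the peak calls and the summit heights behind them are given as descriptions without a test. Only 1 TKO sample has a value at these regions, so no difference between the lines could be tested against the spread of TKO samples. The lists hold no read totals, so the sequencing depth of each EZH2 library is unknown from them and was not used here. Summit height is the number of reads at the highest point of a peak, with no scaling between libraries stated. Positions are in hg18. No annotation or sequence of that build was used here, so no gene, exon or promoter is assigned to a region.

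The TKO run 1 list was much the shortest. It held 651 peaks, against 5516 in TKO run 2, 2972 in NTKO run 1 and 10582 in NTKO run 2. Its median summit height was 44 reads, whereas the medians of the other lists were 65, 52 and 63 reads in the same order. Of the 1342 regions with a peak in the other 3 lists, 1016 (75.7%) had none in TKO run 1 and 326 had one. The latter are called 4-list regions below. The missed regions were the fourth most frequent of the 15 possible patterns of presence, after regions of NTKO run 2 alone (6841), of both run 2 lists alone (1583) and of TKO run 2 alone (1254).

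**Figure D1:**
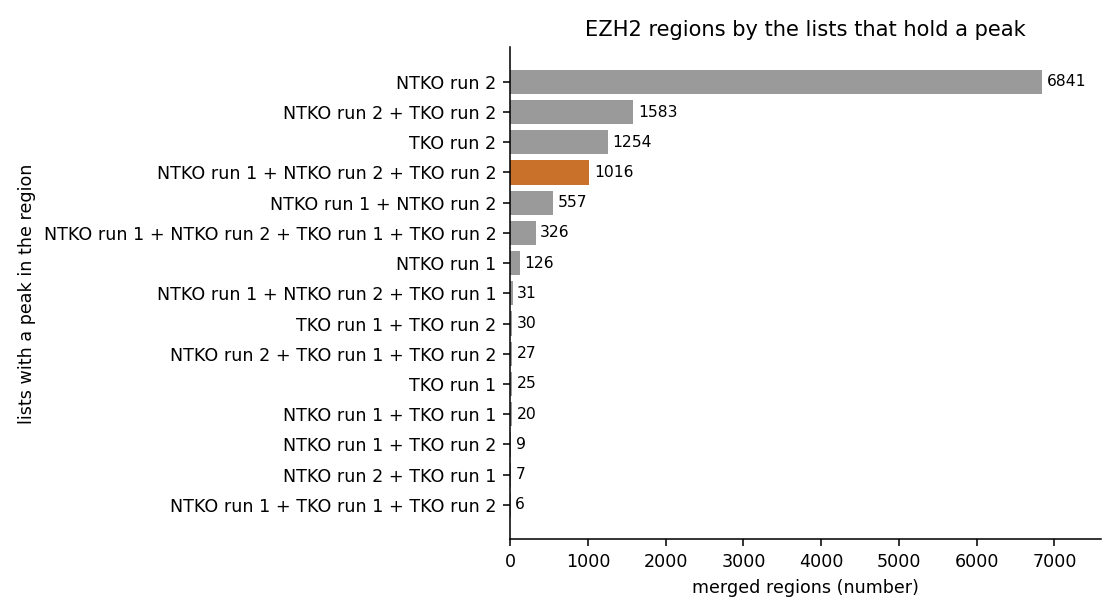
Number of merged EZH2 regions (x axis) for each combination of peak lists with a peak in the region (y axis). The orange bar marks the 1016 missed regions, and the 326 regions found in all 4 lists are the sixth bar.

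The missed regions took very different shares of the 3 lists that chose them. They held 1584 peaks of NTKO run 1, or 53.3% of that list. In TKO run 2 they held 1730 peaks (31.4%), and in NTKO run 2 they held 1054 (9.96%). By covered sequence, the shares were 46.0% of NTKO run 1 (0.947 of 2.06 Mb), 36.1% of TKO run 2 (1.22 of 3.38 Mb) and 29.0% of NTKO run 2 (2.28 of 7.86 Mb). The shortest of the 3 lists was therefore also the one most taken up by these regions. Of the 500 highest peaks in each list, 138 of TKO run 2, 171 of NTKO run 1 and 207 of NTKO run 2 lay in missed regions. Set against the missed regions' share of all peaks, that was fewer in TKO run 2 and NTKO run 1 and more in NTKO run 2.

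Summit heights in the missed regions were lowest in NTKO run 1 and highest in NTKO run 2, with TKO run 2 between them. In NTKO run 1 the highest summit of a region ranged from 25 to 166 reads, with a median of 55 (quartiles 47 and 66). In NTKO run 2 it ranged from 50 to 229 reads, with a median of 112 (quartiles 94 and 133). In TKO run 2 it ranged from 39 to 184 reads, with a median of 82 (quartiles 65 and 102). The 3 distributions overlapped. The median of the best −log10 p per region was 20.8 in NTKO run 1, 42.0 in NTKO run 2 and 28.7 in TKO run 2, against a calling threshold of 15.

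Compared with the 4-list regions, the missed regions were lower in each of the 3 lists. The 4-list medians were 97.5 reads in NTKO run 1, 163.5 in NTKO run 2 and 138.5 in TKO run 2. TKO run 1 itself reached a median of only 47 reads there (range 33 to 264), it was below TKO run 2 in 321 of the 326, and its median ratio to TKO run 2 was 0.361. Missed regions were in turn higher than regions found only in the run 2 lists, whose medians were 72 reads in NTKO run 2 and 64 in TKO run 2. They were also higher in both NTKO lists than regions found only in NTKO, where the medians were 51 and 90 reads in runs 1 and 2.

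**Figure D2:**
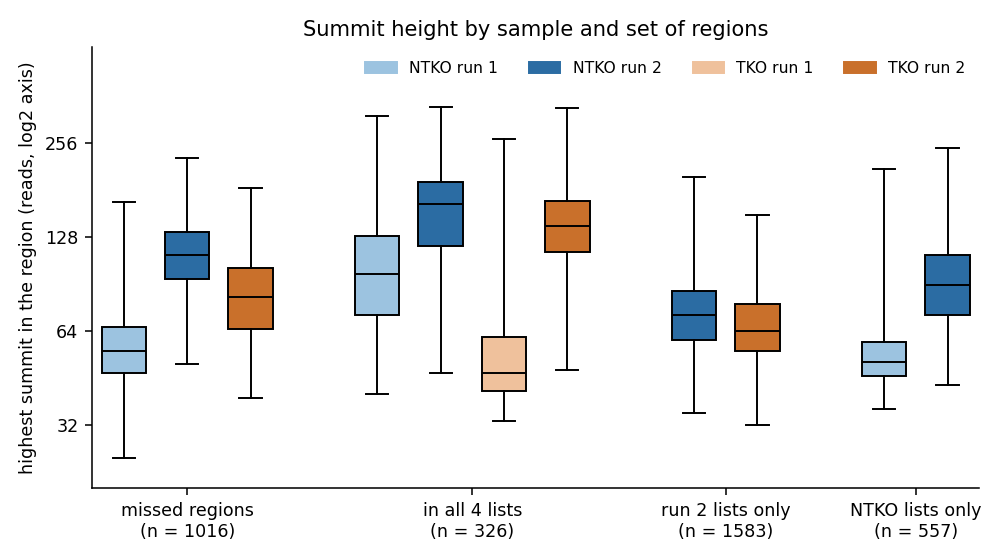
Highest summit per region in reads (y axis, log2 scale) for 4 sets of regions (x axis), with 1 box per sample that has a peak there. Boxes span the quartiles with the median as a line and whiskers reach the lowest and highest region. At the missed regions the medians are 55, 112 and 82 reads in NTKO run 1, NTKO run 2 and TKO run 2.

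As deposited, the 3 samples mostly had the same order from region to region. NTKO run 2 was highest and NTKO run 1 lowest in 794 of the 1016 missed regions (78.1%) and in 57.1% of the 4-list regions. In 106 the order was NTKO run 2, NTKO run 1, TKO run 2, and in 98 it was TKO run 2, NTKO run 2, NTKO run 1. TKO run 2 thus lay between the NTKO samples, or equalled one of them, in 804 regions (79.1%). The same held for 1007 of all 1342 regions with a peak in these 3 lists and for 62.3% of the 4-list regions. TKO run 2 was below both NTKO samples in 110 missed regions and above both in 102. The order is that of the unscaled libraries, and the scaled counts are given with the scaled ratios.

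Measured against NTKO run 2 alone, TKO run 2 was lower at most missed regions. The median log2 ratio of NTKO run 2 to TKO run 2 height was 0.44 (quartiles 0.20 and 0.68), and single regions ranged from −0.63 to 1.51. NTKO run 2 was higher at 910 regions (89.6%), equal at 4 and lower at 102, and the share higher over all 2952 merged regions with a peak in both run 2 lists was 72.9%. At 352 regions (34.6%) it was higher by at least 1.5-fold, whereas the share over those 2952 regions was 19.0%. TKO run 2 was higher by at least 1.5-fold at 2 missed regions, against a background of 3.39%. A height at least 2-fold greater in NTKO run 2 was seen at 66 missed regions, against a background of 2.61%. The same median ratio was 0.12 over the 4-list regions and 0.15 over the regions of the run 2 lists alone. The heights used here also enter the peak calls behind the rule, so nothing is read from these shares.

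The direction turned with the NTKO sample taken. With NTKO run 1 in place of run 2, the median log2 ratio to TKO run 2 was −0.51 (range −1.86 to 0.88), and TKO run 2 was higher at 899 of 1016 regions (88.5%). This was much the same elsewhere, with 87.3% over all 1357 regions shared by these samples and a median of −0.49 over the 4-list regions. The 2 NTKO samples differed by a median of 0.99 on the log2 scale (range −0.22 to 1.84), against 0.62 over the 4-list regions. NTKO run 2 was at least 1.5-fold higher than NTKO run 1 at 887 missed regions (87.3%), and the background over all 1930 regions shared by these samples was 75.8%. The reverse was seen at 0 missed regions, with a background of 0.363%. With the mean of both NTKO samples, the log2 ratio to TKO run 2 was −0.036.

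Dividing heights by each sample's median over the 4-list regions removed the reversal between the NTKO samples. For NTKO run 2 against TKO run 2, where this lowered every log2 ratio by 0.24, the median over all regions with both run 2 peaks moved from 0.25 to 0.01 and that of the missed regions from 0.44 to 0.20. For NTKO run 1 against TKO run 2 the median of the missed regions moved from −0.51 to 0.00052, with 509 regions above 0 and 507 below. With the mean of both NTKO samples it was 0.097. The median ratio of NTKO run 2 to NTKO run 1 moved from 0.99 to 0.24, beside the 0.20 of NTKO run 2 to TKO run 2. After scaling, TKO run 2 lay between the NTKO samples in 298 missed regions (29.3%), below both in 471 (46.4%) and above both in 247 (24.3%). The number of missed regions at least 1.5-fold higher in NTKO run 2 than in TKO run 2 fell to 139 (13.7%), with 13 higher in TKO run 2. Over all 2952 regions the corresponding counts were 181 and 237 after scaling and 561 and 100 before it. The NTKO share of all such calls went from 84.9% to 43.3% across all regions and from 99.4% to 91.4% at the missed regions. The missed regions lack a TKO run 1 peak by the rule, whereas the 4-list regions used for scaling have one. An offset between these sets can follow from that choice, so nothing is read from the scaled shares either.

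**Figure D3:**
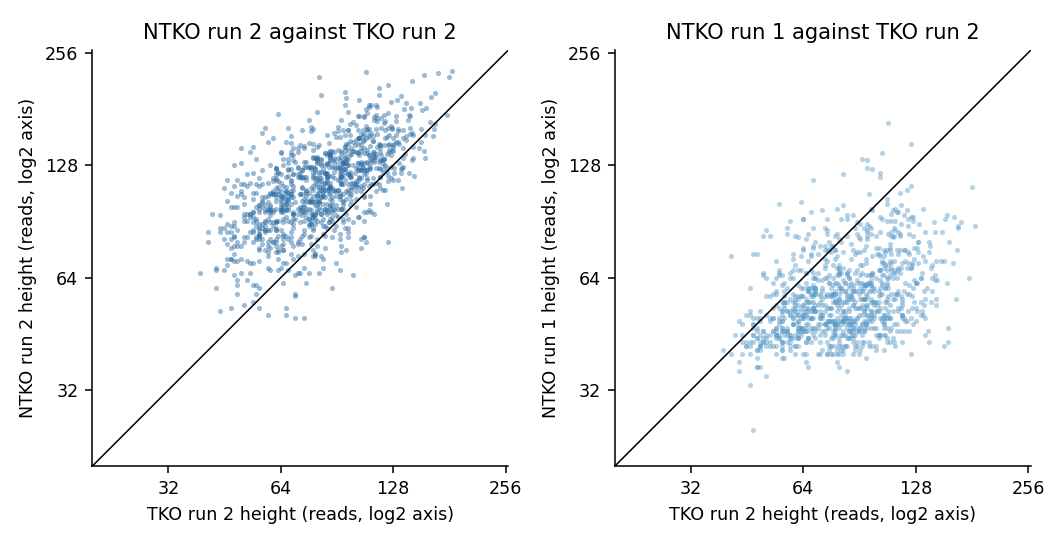
Summit height in NTKO run 2 (left, y axis) and in NTKO run 1 (right, y axis) against TKO run 2 (x axes) at the 1016 missed regions, in reads on log2 axes. The black line marks equal heights. In the left panel 910 points lie above it, and in the right panel 899 lie below it.

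Heights were correlated across the missed regions, least so between NTKO run 1 and TKO run 2. As a description over 1016 regions, which share libraries and are not replicates, the Pearson correlation of log2 heights was 0.63 (Spearman 0.63) between NTKO run 2 and TKO run 2. It was 0.61 (Spearman 0.60) between the 2 NTKO samples and 0.38 (Spearman 0.38) between NTKO run 1 and TKO run 2. NTKO run 1 heights lay closest to the calling limit, which bounds them from below.

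The share of regions missed in TKO run 1 fell with their height in TKO run 2. Among the regions with a peak in the other 3 lists, 165 of 173 (95.4%) were missed where TKO run 2 reached 39 to 59 reads, and 302 of 317 (95.3%) where it reached 60 to 79. The share was 91.0% at 80 to 99 reads (274 of 301) and 78.5% at 100 to 119 reads (168 of 214). It was 50.3% at 120 to 139 reads (73 of 145) and 30.8% at 140 to 159 (24 of 78). Above that, from 160 to 332 reads, 10 of 114 regions (8.77%) were missed. Most missed regions were thus of moderate height in TKO run 2, but 275 reached at least 100 reads and 34 at least 140.

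Within classes of TKO run 2 height, the missed regions also stood lower in NTKO run 1. That library is of the other line, and the TKO run 1 peak alone made the split between missed and 4-list regions. NTKO run 1 is still not independent of the split, since both sets needed a peak in it and its peaks helped set the merged bounds. Its peaks covered a median of 602 bp over missed and 1701 bp over 4-list regions. At 60 to 79 TKO run 2 reads the NTKO run 1 median was 53 reads over missed regions and 67 over 4-list regions. At 100 to 119 reads it was 61 against 80.5. At 120 to 139 reads, where the 73 missed and 72 4-list regions were nearly equal in number, it was 64 (quartiles 53 and 77) against 92.5 (quartiles 69.75 and 115.75). At 140 to 159 reads it was 66.5 against 103.5. The NTKO run 1 median was lower over the missed regions in all 7 height classes. The lowest classes held only 8 and 15 4-list regions, and the widest, from 160 to 332 reads, only 10 missed regions. Heights were not matched within a class.

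NTKO run 2 did not follow the same pattern. At 60 to 79 TKO run 2 reads its median was 102 reads over missed and 85 over 4-list regions, at 120 to 139 it was 143 against 145.5, and at 140 to 159 it was 155.5 against 173.5. Its median was higher over the missed regions in the lower 4 classes and lower in the upper 3. The median log2 ratio of NTKO run 2 to NTKO run 1 accordingly ran from 0.85 to 1.23 over the missed regions and from 0.36 to 0.76 over the 4-list regions, with no overlap between the classes' medians. Regions without a TKO run 1 peak thus tended to be lower in NTKO run 1 as well, within the same class of TKO run 2 height. With 1 library per line and run, and with regions that are not replicates, this was not tested.

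**Figure D4:**
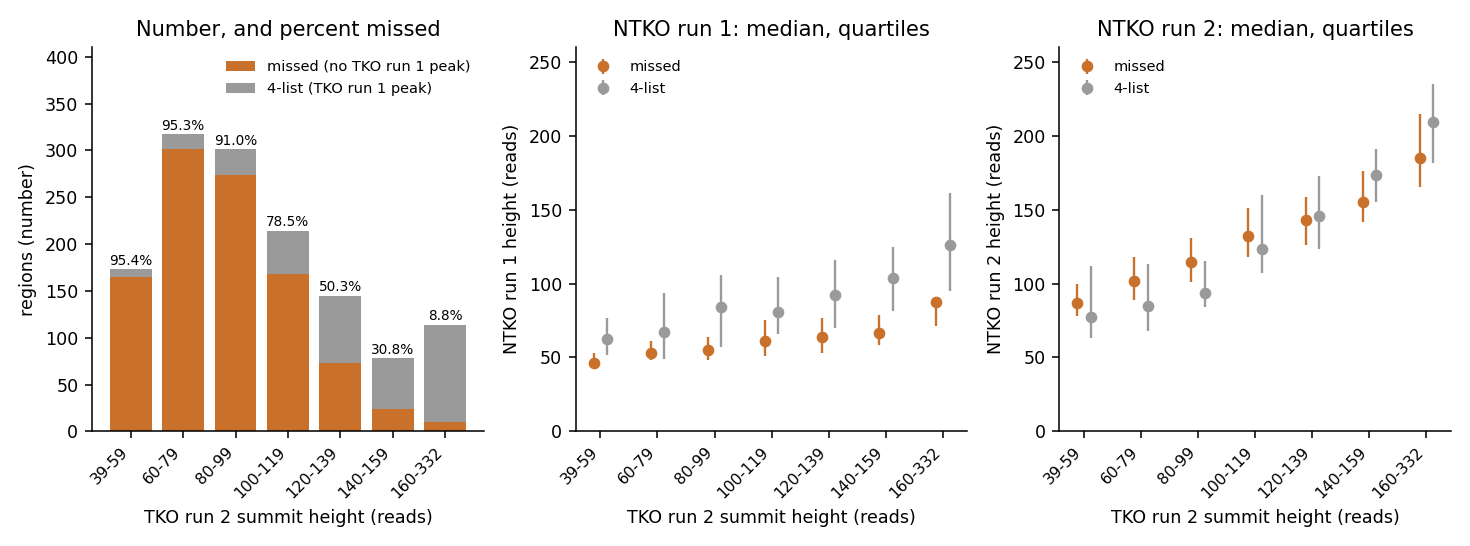
Left, number of regions with a peak in NTKO run 1, NTKO run 2 and TKO run 2 (y axis) by TKO run 2 summit height (x axis, reads), split into missed and 4-list regions, with the percent missed above each bar. Middle and right, median height (points) and quartiles (lines) in NTKO run 1 and NTKO run 2 for both sets. NTKO run 1 is lower over the missed regions in every class, for example 64 against 92.5 reads at 120 to 139.

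The highest missed regions in TKO run 2 show how strong a site could be and still lack a TKO run 1 peak. A region of 1585 bp on chromosome 19, from 52609054 to 52610639, reached 184 reads in TKO run 2, beside 88 and 229 in the NTKO samples (runs 1 and 2), and the nearest TKO run 1 peak was 753 kb away. On chromosome 16, from 29941777 to 29944822, TKO run 2 reached 181 reads beside 112 and 220, with the nearest TKO run 1 peak 2.09 Mb away. Both regions had 1 broad NTKO run 2 peak over 2 peaks each of NTKO run 1 and TKO run 2. On chromosome 7, from 1265641 to 1268309, NTKO run 1 was much the lowest at 64 reads, while NTKO run 2 and TKO run 2 reached 175 and 178. Summits of the run 2 samples lay only 2 bp apart there. The next were on chromosome 1 from 853567 to 859208, with NTKO heights of 90 and 226 and a TKO run 2 height of 169 reads, and on chromosome 16 from 87462504 to 87464021, with 87, 200 and 166 reads in the same order. These last regions had a TKO run 1 peak close by, at 1104 bp and 455 bp.

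Regions with the largest height ratio of NTKO run 2 to TKO run 2 were covered almost throughout by an NTKO run 2 peak and only at a short stretch by a TKO run 2 peak. On chromosome 1 from 22817237 to 22819622 the heights were 65 reads in NTKO run 1, 142 in NTKO run 2 and 50 in TKO run 2, a log2 ratio of 1.51. The NTKO run 2 peak covered all 2385 bp, whereas TKO run 2 covered 105 bp. On chromosome 16 from 83428865 to 83435446 the heights were 102, 176 and 63 reads (log2 ratio 1.48), with 6581 bp covered in NTKO run 2 and 499 bp in TKO run 2. On chromosome 9 the regions from 134106546 to 134108993 (87, 161 and 58 reads) and from 138646522 to 138647706 (50, 156 and 57 reads) had log2 ratios of 1.47 and 1.45. In the first 3 of these 4 regions TKO run 2 was below both NTKO samples, and in the last it lay between them.

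At the other end, 4 short regions were higher in TKO run 2 than in both NTKO samples. On chromosome 17 from 76956542 to 76957772 the heights were 40 reads in NTKO run 1, 80 in NTKO run 2 and 124 in TKO run 2, a log2 ratio of −0.63. On chromosome 4 from 154362821 to 154363984 they were 42, 65 and 100 reads (−0.62). The regions on chromosome 21 from 42512858 to 42513420 (48, 50 and 74 reads) and on chromosome 5 from 131590806 to 131591683 (47, 60 and 88 reads) had ratios of −0.57 and −0.55. The chromosome 21 region was the one of these where the NTKO samples differed least. Covered length followed less clearly, since only the chromosome 21 region was more than 2-fold longer in TKO run 2 (283 against 129 bp).

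Missed regions were long, and their length came mainly from broad NTKO run 2 peaks. The median region was 1667 bp (range 179 to 16769), against 2291 bp for 4-list regions, 681 bp for regions of the run 2 lists alone and 784 bp for regions of the NTKO lists alone. Peaks of NTKO run 2 covered a median of 1613 bp per region, those of TKO run 2 777.5 bp and those of NTKO run 1 602 bp. As a share of the region, NTKO run 2 peaks covered a median of 100%, TKO run 2 peaks 54.1% and NTKO run 1 peaks 42.3%. Over the 4-list regions the medians were 97.7% in NTKO run 2, 83.4% in TKO run 2, 79.1% in NTKO run 1 and 22.5% in TKO run 1.

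Length favoured NTKO run 2 more than height did. The median log2 ratio of covered length, NTKO run 2 to TKO run 2, was 0.85, against 0.19 over the 4-list regions, 0.64 over regions of the run 2 lists alone and 0.61 over all regions with both run 2 peaks. NTKO run 2 covered at least 2-fold more at 449 missed regions (44.2%), where the background was 36.8%, and TKO run 2 covered at least 2-fold more at 3, where it was 4.84%. Against NTKO run 1, the covered length of NTKO run 2 had a median log2 ratio of 1.22, and 0.94 over all 1930 regions of both NTKO lists. With NTKO run 1 in place of run 2 the ratio to TKO run 2 turned to −0.27.

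Most missed regions had 1 peak in both run 2 lists, and many others had 1 peak in NTKO run 2 and several in TKO run 2. The first form was seen in 614 (60.4%), against 72.4% of all regions with both run 2 peaks. All 3 lists had exactly 1 peak in 512 of the 1016 regions. In 366 (36.0%), the region held 1 NTKO run 2 peak and at least 2 TKO run 2 peaks. That form was seen in 27.6% of the 4-list regions (90 of 326). It was seen in 13.1% of the regions of the run 2 lists alone (208 of 1583) and in 22.5% of all regions with both run 2 peaks. Whether the NTKO run 2 peak spanned the TKO run 2 peaks was not checked in this count. The opposite form, at least 2 NTKO run 2 peaks and 1 TKO run 2 peak, occurred in 16 (1.57%). Its share was 8.59% of the 4-list regions and 3.56% of all regions with both run 2 peaks. NTKO run 1 had at least 2 peaks in 332 missed regions (32.7%). That share was 31.3% over the 4-list regions and 26.4% over all 1930 regions in both NTKO lists. NTKO run 1 reached 14 peaks in a missed region, whereas NTKO run 2 had at most 3. A region's length and the number of its peaks depend on one another in this count, since merging over a broad peak joins the shorter ones beneath it.

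Both ratios of NTKO run 2 to TKO run 2 were larger in longer regions. NTKO run 2 peaks covered a median of 100% of the region in every length class, so region length is largely NTKO run 2 peak length. A larger length ratio in longer regions follows from the grouping, and a larger height ratio can follow from it too. When the regions were ranked by length and cut into 4 equal classes, the shortest 254 spanned 179 to 975 bp. There the median log2 height ratio of NTKO run 2 to TKO run 2 was 0.35 and that of covered length 0.63. In the next classes the height ratio was 0.43 and 0.48. In the longest 254 regions, of 2928 to 16769 bp, it was 0.54, with a length ratio of 1.00. Between the NTKO samples, the median log2 height ratio of run 2 to run 1 rose too, from 0.84 in the shortest class to 1.15 in the longest. The mean number of TKO run 2 peaks rose from 1.04 to 2.96 between the shortest and longest class, while that of NTKO run 2 stayed at 1.01 to 1.06. Median heights rose in all samples, from 50 to 59 reads in NTKO run 1, from 92 to 130 in NTKO run 2 and from 71.5 to 90 in TKO run 2.

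In each of the 4 longest regions, NTKO run 2 had 1 or 2 peaks and the lists of NTKO run 1 and TKO run 2 had at least 6 each. The longest, 16769 bp on chromosome 17 from 74609582 to 74626351, held 14 peaks of NTKO run 1, 2 of NTKO run 2 and 9 of TKO run 2, with heights of 68, 145 and 124 reads. On chromosome 11 from 1992906 to 2008836 a single NTKO run 2 peak lay over 7 NTKO run 1 peaks and 12 TKO run 2 peaks, and heights were 68, 186 and 115 reads. On chromosome 14 from 104105880 to 104121756 it lay over 6 and 10 peaks, with 60, 119 and 72 reads. On chromosome 9 from 138631414 to 138646127 it lay over 8 and 10 peaks, with 66, 154 and 98 reads. Covered length was close to equal in the run 2 samples on chromosome 17 (16533 bp in NTKO and 15208 bp in TKO) and far apart on chromosome 9 (14713 and 3872 bp).

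Summits of the run 2 samples were no closer together at the missed regions than in the sets compared. The median distance between the highest NTKO run 2 and TKO run 2 summits was 71 bp (quartiles 22.75 and 261.75, highest 5648 bp). It was 40.5 bp over the 4-list regions, 65 bp over regions of the run 2 lists alone and 64.5 bp over all regions with both run 2 peaks. At 576 missed regions (56.7%) the distance was within 100 bp. That share was 69.9% of the 4-list regions, 61.0% of regions of the run 2 lists alone and 60.4% of all regions with both run 2 peaks. Between the NTKO samples the median distance was 151.5 bp, with 387 regions (38.1%) within 100 bp, against 44.8% of the 4-list regions and 43.3% of all 1930 regions in both NTKO lists. Between NTKO run 1 and TKO run 2 it was 200.5 bp. In the 512 regions with 1 peak in each list the medians were 50.5 bp between the run 2 samples and 108.5 bp between the NTKO samples.

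Few missed regions lay next to a TKO run 1 peak, but that list held only 651 peaks and the rule excluded overlap. The median distance to the nearest TKO run 1 peak on the same chromosome was 195606 bp and the lowest 108 bp. The median was larger, 240566 bp, for regions of the run 2 lists alone. It was 394202 bp for regions of the NTKO lists alone and 456118 bp over all merged regions. A TKO run 1 peak lay within 1 kb of 27 missed regions, within 5 kb of 110, within 10 kb of 164 (16.1%) and within 100 kb of 431 (42.4%). The 4 missed regions on chromosome 13 had no TKO run 1 peak on their chromosome.

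Regions just inside and just outside the rule show how narrow the call could be. The weakest missed region lay on chromosome 17 between 76089811 and 76090165. It had 49 reads in TKO run 2, where the best −log10 p was 15.0, beside 41 and 61 reads in the NTKO samples (runs 1 and 2). On chromosome 20 from 61526283 to 61527233, NTKO run 1 passed at 15.1 with 42 reads although NTKO run 2 and TKO run 2 reached 148 and 152 reads, and a TKO run 1 peak lay 454 bp away. Also on chromosome 20, from 61353631 to 61356208, NTKO run 1 passed at 15.1 with 42 reads beside 126 and 62 reads. Just outside, the region on chromosome 6 from 30176345 to 30177576 had a TKO run 1 peak with a −log10 p of 15.2 and 33 reads, beside 55, 79 and 96 reads in NTKO run 1, NTKO run 2 and TKO run 2. On chromosome 11 from 1606291 to 1607436 the TKO run 1 peak also had 15.2, with 35 reads beside 66, 139 and 111. On chromosome 20 from 34143868 to 34145168 it had 15.3 and 39 reads, although the other samples reached 106, 223 and 196 reads.

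The missed regions were spread over the genome with a few dense places. Chromosome 16 held 118, chromosome 1 held 105, chromosome 17 held 101, chromosome 11 held 100, chromosome 9 held 99, chromosome 20 held 90 and chromosome 19 held 67. These 7 chromosomes together held 680 (66.9%), and 56.4% of all merged regions. They were picked for the most missed regions, so a larger share can follow from that choice, and nothing is read from it. Among chromosomes with at least 15 missed regions, the share of candidate regions that TKO run 1 missed was lowest on chromosome 4 (38.1%), followed by chromosomes 12 (56.4%) and 2 (58.9%), and reached 87.5% on chromosome 5 and 90.5% on chromosome 21. The last of these are small counts, as chromosomes 4, 5, 12 and 21 each held between 16 and 22 missed regions.

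Chromosomes also differed in the height ratio of NTKO run 2 to TKO run 2. Among chromosomes with at least 15 missed regions, its median was highest on chromosome 14, at 0.77 over 21 regions. Of these, 81.0% were at least 1.5-fold higher in NTKO run 2. A single stretch, from 103000001 to 104500000, held 12 of the 21, and 11 of those 12 were at least 1.5-fold higher. Chromosome X, with 12 missed regions, had a median of 0.78, and 7 of the 12 lay between 152000001 and 153000000. The median was 0.58 on chromosome 9, 0.55 on chromosome 1, 0.54 on chromosome 19 and 0.53 on chromosome 11. At the low end it was 0.31 on chromosomes 16 and 20, 0.28 on chromosome 15 and 0.26 on chromosome 17, where 16.8% were at least 1.5-fold higher. Every chromosome with at least 15 missed regions had a median above 0 with NTKO run 2 and below 0 with NTKO run 1. The NTKO run 1 to TKO run 2 medians ran from −0.84 on chromosome 20 to −0.26 on chromosome 14.

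**Figure D5:**
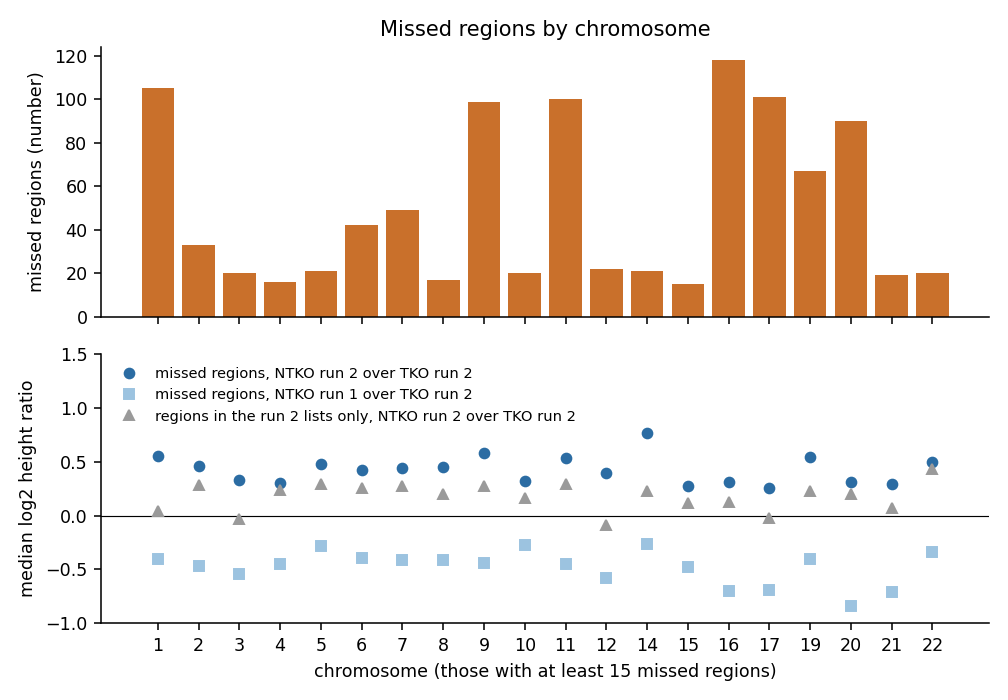
Upper panel, number of missed regions (y axis) per chromosome (x axis, chromosomes with at least 15). Lower panel, median log2 height ratio (y axis) of NTKO run 2 to TKO run 2 (circles) and of NTKO run 1 to TKO run 2 (squares) at the missed regions, and of NTKO run 2 to TKO run 2 at regions of the run 2 lists alone (triangles). All circles are above 0, with chromosome 14 highest at 0.77, and all squares are below 0.

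In windows of 0.5 Mb, 381 windows held a missed region and 247 of them held 1. The 5 fullest windows held 152 (15.0%). The fullest, on chromosome 20 from 61000001 to 61500000, held 38 missed regions and 8 4-list regions. In all it held 87 regions with a peak in both run 2 lists, 140 TKO run 2 peaks and 11 TKO run 1 peaks. Median heights of its missed regions were 50 reads in NTKO run 1, 124 in NTKO run 2 and 95 in TKO run 2. The median log2 ratio of NTKO run 2 to TKO run 2 was 0.37 (range −0.05 to 1.44), and 35 of the 38 were higher in NTKO run 2. With NTKO run 1 in place of run 2 the median was −0.84.

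The next window, on chromosome 1 from 10500001 to 11000000, had 31 missed regions, 1 4-list region and 1 TKO run 1 peak. All 31 were higher in NTKO run 2 than in TKO run 2, with a median log2 ratio of 0.69. The 15 regions of the run 2 lists alone in this window had a median of 0.74, and the 4-list region had 0.44. With NTKO run 1 in place of run 2, the median ratio to TKO run 2 over the 31 missed regions was −0.21. The window contained the longest unbroken run of missed regions, 27 with gaps of at most 10 kb over 163 kb (10634635 to 10797806). Heights in this run were 45 to 89 reads in NTKO run 1, 80 to 206 in NTKO run 2 and 50 to 117 in TKO run 2, so the ranges of the 3 samples overlapped. The ratio of NTKO run 2 to TKO run 2 in the run went from 0.17 to 1.27. The other full windows were on chromosome 16 from 83500001 to 84000000 (30), chromosome 9 from 138000001 to 138500000 (27) and chromosome 11 from 1500001 to 2000000 (26).

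Neighbouring missed regions were often close. The median gap between neighbours on a chromosome was 27554 bp, and of 992 neighbouring pairs 183 lay within 1 kb and 386 (38.9%) within 10 kb. Such neighbours may belong to 1 bound domain and are not independent sites. No such gaps are given here for the other sets of regions, so closeness is not shown to be particular to the missed regions. The 25 windows with at least 8 missed regions held 415 in all. Their median log2 height ratio of NTKO run 2 to TKO run 2 was lowest at 0.16 on chromosome 16 (84000001 to 84500000, 11 regions). It was highest at 0.80 on chromosome 11 (2000001 to 2500000, 16 regions). With NTKO run 1 in place of run 2, the median was below 0 in all 25 windows, from −1.01 to −0.21.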

How the data were processed

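EZH2 ChIP-seq and input libraries were made from the NTKO and TKO lines, with 2 EZH2 samples per line. The study calls them biological replicates. Per the labels, reads were processed with CASAVA 1.8 and BWA against hg18. The authors removed duplicate reads and ran ChIPseeqer on every EZH2 library with the matching input as background (2-fold enrichment, −log10 p of 15 or more). The authors deposited 1 peak list per EZH2 sample with a log10 p score, the mean and summit read signal (coverage) of each peak, and the summit position as a percent of its width. No scaling of the signal to library size is given in the sources used here. The input samples were used through the peak calls only.

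Overlapping or touching peaks were merged with Python 3.11.15, numpy 2.4.6 and pandas 2.3.3, and a region took the highest summit of each list. The merging was tested on simulated lists. Ratios were log2 of summit heights or covered lengths with no pseudocount, since both samples compared had a peak. The background for counts was every merged region with a peak in both samples compared. No statistical test was run, because TKO run 1 has no value at these regions. Counting error and intervals could not be given without depth.

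The regions and their sets were chosen with earlier results of these data known. Named regions were the 5 with the highest TKO run 2 summit, the 4 largest and 4 smallest height ratios of NTKO run 2 to TKO run 2, the 4 longest, the 3 with the weakest call, the 3 regions in all 4 lists with the weakest TKO run 1 call, and the 0.5 Mb window with the most missed regions. The height classes, the other windows and the runs of regions were chosen after their values were seen. The alternatives were a stricter threshold, merging over gaps, a 50% overlap, a distance from TKO run 1 peaks, another scaling, other folds, and leaving out NTKO samples. Coordinates were kept in hg18. The reference used here was of another build, which 4 missed regions overrun, so it gave no genes or sequences.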

Additional observations from a re-analysis of the deposited data

How the results depend on the processing

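Of 41 alternatives over 6 results, 29 were counted as the same in direction and within the limits set for a change, 7 moved and 5 reversed. The limits were wide. The 29 include 684 missed regions in place of 1016 and a median log2 height ratio of 0.00052, close to no difference, in place of 0.44. The number of missed regions moved to 668 with a −log10 p of at least 20 and to 440 with 50% overlap. Merging over gaps of 1 kb gave 684, and leaving out an NTKO sample gave 1185 to 2621. The 352 regions at least 1.5-fold higher in NTKO run 2 moved to 139 after scaling to the regions of all 4 lists and to 66 at 2-fold. The ratios of NTKO to TKO run 2 rested on NTKO run 2. With NTKO run 1 in its place they reversed, to −0.51 for height and −0.27 for covered length at the same regions, and the height ratio with the mean of both NTKO samples was −0.036. With heights also scaled to the regions of all 4 lists, which was added after the data were seen, these height ratios were 0.00052 and 0.097, and the ratio of NTKO run 2 to NTKO run 1 moved from 0.99 to 0.24. When regions were chosen anew without 1 NTKO sample, height ran from −0.53 to 0.27 and length from −0.25 to 0.71, the lower value in each case being without run 2. The median summit distance was 67 to 138 bp in these fits, and 200.5 bp with NTKO run 1 at the same regions. TKO samples were not left out, because the rule needs both. No paired analysis was possible because the results come from no test and TKO run 1 has no value at these regions. The unknown depth limits any comparison of heights between libraries.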

Other observations

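A stretch of distal chromosome 14, from 103000001 to 104500000, was singled out after its values were seen. It held 12 of the 21 missed regions of that chromosome, 19 regions of the run 2 lists alone, 0 4-list regions and 0 TKO run 1 peaks. All 12 missed regions were higher in NTKO run 2 than in TKO run 2, and 11 by at least 1.5-fold. Of the 19 regions of the run 2 lists alone, 16 were higher and 9 by at least 1.5-fold. Over all 2952 regions with both run 2 peaks the shares were 72.9% and 19.0%. The median log2 height ratio was 0.75 over the 12 missed regions (range 0.11 to 1.40) and 0.58 over the 19 regions. Heights were 35 to 69 reads in NTKO run 1 (median 44), 70 to 162 in NTKO run 2 (median 105) and 45 to 91 in TKO run 2 (median 59). With NTKO run 1 the median ratio to TKO run 2 was −0.26. The regions were long, with a median of 5685.5 bp, and the median log2 ratio of covered length, NTKO run 2 to TKO run 2, was 2.32. No test was possible.

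A window of chromosome X, from 152000001 to 153000000, was also singled out afterwards. It held 7 of the 12 missed regions of that chromosome, with a median log2 height ratio of NTKO run 2 to TKO run 2 of 0.77. With NTKO run 1 in place of run 2 the median was −0.38. The 19 regions of the run 2 lists alone in the same window had a median of 0.15.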
